A study of Homo sapiens with 3 samples.

Results

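The genes described here are 41 components of the human DNA replication machinery. They were chosen by name for their known function, with earlier results of these data known, and grouped into 6 classes. They are 18 helicase and licensing genes, 9 polymerase genes, 6 genes of the sliding clamp and its loader, 3 subunits of replication protein A (RPA), 2 genes of Okazaki fragment joining and 3 subunits of RNase H2. Each gene was targeted by 3 guides, so that 123 of the 62916 guides in the screen belong to them. The screen used NUGC3, an established gastric cancer cell line, carrying a pooled GeCKO knockout library, in which a guide RNA directs Cas9 to cut 1 gene in each cell. Guide abundance was read from genomic DNA of a culture grown with 10 nM RTX until day 14, of one grown with DMSO, the solvent, until day 14, and of the DMSO group at day 0. RTX is not written out in the labels, and the series title concerns antifolate drugs. Groups follow the sample titles, because a protocol note in the labels assigns the day 0 cells a 14-day exposure. There was a single library for every condition, which leaves all differences without a replicate, and genomic DNA gives no expression markers with which to check the cell line.

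Replication starts at origins that the origin recognition complex, CDC6 and CDT1 load with the MCM2-7 ring in G1 phase. In S phase the kinase CDC7 with its activator DBF4 acts on the ring so that CDC45 and the 4 GINS proteins can join it. MCM10 takes part in making the assembled helicase active. DNA polymerase alpha with primase then lays down primers, polymerases delta and epsilon extend them on the PCNA clamp that the RFC complex loads, RPA covers single-stranded DNA, and FEN1 and LIG1 trim and join the lagging-strand fragments. RNase H2 removes ribonucleotides from DNA. Antifolates limit the supply of thymidylate, a building block of this synthesis. A cell that stops dividing after a knockout is diluted out of the culture, so the reads of its guide decrease relative to those of other guides.

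The libraries held 17344507 reads in RTX, 18805737 in DMSO at day 14 and 16547572 at day 0. Reads are whole reads recovered from the deposited normalized values. Guides against replication genes were less abundant than the library as a whole at day 0, with a median of 183 reads against 230 over all guides. The samples hold no library from before day 0, so the source of that difference was not tested. At day 14 the guides against replication genes had medians of 136 reads in RTX and 137 in DMSO. The log2 ratio of a guide was taken between normalized values with a pseudocount of 5, which understates changes of guides with few reads, and each gene is given by the median of its 3 guides. The middle 95% of 991 non-targeting guides, which cut nothing and show how far abundance drifts without a knockout, lay between -1.01 and 1.05 for RTX over day 0, between -0.97 and 1.11 for DMSO over day 0, and between -1.31 and 1.17 for RTX over DMSO. Guides outside these limits are called below or above them. The median of non-targeting guides was 0.11, 0.19 and -0.10 in the same order of comparisons, whereas the median of all 20150 genes tested was within 0.0049 of 0, so scores are relative to all genes. Both comparisons with day 0 share the day 0 library and both comparisons with RTX share the RTX library. The DMSO library of day 14 is likewise shared by DMSO over day 0 and RTX over DMSO. A guide with few reads in it is thereby pushed lower in the former and higher in the latter. The values of the comparisons therefore stand side by side and are not independent.

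Most replication genes had guides that were less abundant at day 14 than at day 0, in both cultures. In RTX, 34 of 41 genes had a median log2 ratio below 0 against day 0 (50.4% of all genes tested), and the median over the 41 was -0.48. In DMSO, 34 of 41 genes were below 0 (50.1% of all genes), and the median was -0.56. A 2-fold or greater loss by the median guide was seen for 7 genes in RTX, where 1.39% of all genes passed that size, and for 9 in DMSO, where 3.42% did. Of the 123 guides, 25 (20.3%) lay below the non-targeting limit in RTX and 35 (28.5%) in DMSO, where the shares of all targeting guides were 5.16% and 8.05%. No replication gene stood at or above 2-fold higher than at day 0 in either culture (0.62% of all genes in RTX and 0.109% in DMSO). A single member guide lay above the limit in each culture, against CDC7 in RTX (2.72% of all targeting guides) and against RFC1 in DMSO (1.52%), and no gene had 2 or more such guides (0.542% of all genes of 3 guides in RTX and 0.0663% in DMSO).

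All 3 guides were below 0 for 17 of the 41 genes in RTX (14% of all genes of 3 guides) and for 16 in DMSO (14.7%). Fewer genes had several guides past the non-targeting limit. In DMSO, GINS3 was the only gene with all 3 guides below the limit (0.636% of all genes of 3 guides), 9 others had 2 such guides (3.68% of all genes had at least 2), 14 had 1, and 17 had none (80.6% of all genes). In RTX, no gene had 3 guides below the limit (0.138%), 7 had 2 (1.34% at least 2), 11 had 1 and 23 had none (86.3%). The lowest guide of a gene had a median over the 41 genes of -0.96 in RTX and -1.39 in DMSO, against -0.40 and -0.42 over all genes of 3 guides. The highest guide had a median of 0.10 in RTX and 0.16 in DMSO, against 0.38 and 0.37. Among the 123 guides, 7 had fewer than 50 normalized reads at day 0.

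A gene test across the whole table ranked all guides and combined the ranks of each gene by robust rank aggregation, with an exact one-sided p and Benjamini-Hochberg adjustment over 20150 genes. The p compares single libraries by the ranks of the guides of a gene, and 1 extreme guide can be enough for an unadjusted p under 0.05. CDC7 in RTX over day 0 was such a case in the higher direction, with 1 guide at 1.67 and a median of -0.52. In DMSO over day 0, 1 replication gene fell by this test, CDC45 (0.199% of all genes passed), and 15 of 41 had an unadjusted exact p under 0.05 (6.73% of all genes). In RTX over day 0 no replication gene passed robust rank aggregation, and 17 of 41 had an unadjusted exact p under 0.05 (5.68% of all genes); over all genes, 0 were lower there by the same test. In the other direction 0 replication genes passed in either culture (0.0695% of all genes in RTX and 0% in DMSO), and 1 had an unadjusted exact p under 0.05 in each, CDC7 in RTX (5.43% of all genes) and MCM3 in DMSO (5.33%). With edgeR's exact test on recovered reads as the ranking, 1 replication gene passed in DMSO (CDC45), and 0 in RTX.

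CDC45 and the GINS proteins hold the MCM ring in its active form. CDC45, the helicase cofactor, had 2, 17 and 284 reads in RTX, 7, 5 and 170 in DMSO, and 84, 97 and 255 at day 0 for the same 3 guides in that order. Its first 2 guides were below the limit in both cultures, and the guide that was most abundant at day 0 was inside it. The median log2 ratio of CDC45 was -2.22 in RTX over day 0 (guides between -3.68 and 0.15; adjusted exact p = 0.179) and -3.01 in DMSO over day 0 (guides between -3.47 and -0.73; adjusted exact p = 0.0473), the ninth lowest of all genes in DMSO. In RTX over day 0 the CDC45 median was the 6th lowest of all genes. For the guide with 2 reads in RTX, the ratio to day 0 was 0.0237, with an exact 95% counting interval of 0.00282 to 0.0883. This and all intervals and floors below cover counting error only, since PCR reads are not independent molecules. The adjusted exact p in DMSO was between 0.0428 and 0.225 over the alternative settings, and the call was lost with pseudocounts of 1 and 20, by the second-best guide and with the authors' p-values as the ranking.

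GINS4 had 131, 267 and 160 reads in RTX, 22, 41 and 193 in DMSO, and 326, 219 and 136 at day 0. In DMSO the first 2 of these guides were far below day 0, while in RTX only the first was below the limit and the other two were slightly above day 0. Its median was 0.22 in RTX over day 0 and -2.43 in DMSO over day 0 (adjusted exact p = 0.131). GINS3 had 179, 232 and 109 reads in RTX, 121, 133 and 64 in DMSO, and 347, 436 and 143 at day 0. Every GINS3 guide was lowest in DMSO and highest at day 0, with medians of -0.90 in RTX and -1.64 in DMSO against day 0 (adjusted exact p = 0.807 and 0.0983). GINS1 had 197, 56 and 74 reads in RTX, 191, 15 and 91 in DMSO, and 153, 96 and 122 at day 0. GINS2 had 493, 12 and 188 reads in RTX, 400, 130 and 163 in DMSO, and 599, 110 and 255 at day 0. The medians of GINS1 and GINS2 were -0.69 and -0.44 in RTX, and -0.56 and -0.73 in DMSO. The GINS1 guide with 15 reads in DMSO was higher in RTX and the GINS2 guide with 12 reads in RTX was higher in DMSO, so single guides of these genes differed in opposite ways between the cultures. Over the 15 guides of CDC45 and GINS, 4 were below the limit in RTX (5.16% of all targeting guides were) and 8 in DMSO (8.05%).

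The MCM2-7 genes encode the ring itself. Their 6 medians lay between -0.93 and 0.20 in RTX and between -0.95 and 0.66 in DMSO, with a median of -0.31 in RTX and -0.10 in DMSO, and 1 of their 18 guides (5.56%) was below the limit in each culture, a share near that of all targeting guides (5.16% in RTX and 8.05% in DMSO). Each of those was a different guide against MCM5, whose guides had 157, 146 and 57 reads in RTX, 104, 136 and 119 in DMSO, and 302, 213 and 211 at day 0. All 3 MCM5 guides were therefore below day 0 in both cultures (medians -0.93 and -0.95). MCM3 had 99, 207 and 370 reads in RTX, 172, 325 and 515 in DMSO, and 151, 183 and 291 at day 0. Its median was 0.17 in RTX and 0.66 in DMSO over day 0, the highest of the 41 in DMSO, and all of its guides were more abundant in DMSO than at day 0. MCM2 stood at -0.10 in RTX and 0.45 in DMSO, MCM6 at 0.20 and -0.03, MCM4 at -0.51 and -0.35, and MCM7 at -0.74 and -0.18. MCM7 had 193, 91 and 120 reads in RTX, 188, 157 and 215 in DMSO, and 325, 160 and 197 at day 0. The guides of MCM7 lay close together in RTX, between -0.79 and -0.70 (unadjusted exact p = 0.00354, adjusted 0.482).

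Origin licensing genes had a median of -0.44 in RTX and -0.56 in DMSO over day 0. CDT1, the loader of the MCM ring, had 123, 38 and 113 reads in RTX, 50, 31 and 347 in DMSO, and 128, 64 and 202 at day 0. Its first 2 guides were scarcer in DMSO than in RTX and the other was more abundant in DMSO than in RTX, so the medians of -0.69 in RTX and -1.08 in DMSO do not describe every guide. CDC6, an ATPase of the same loading step, had 138, 67 and 135 reads in RTX, 93, 124 and 140 in DMSO, and 156, 122 and 232 at day 0. The CDC6 medians were -0.77 in RTX and -0.86 in DMSO with all guides below 0 in both. ORC1, the largest subunit of the origin recognition complex, stood at -0.05 and -0.23, and ORC6 at -0.19 and -0.26. A single ORC1 guide had 3 reads in RTX, 0 in DMSO and 27 at day 0. That is a loss of at least 10.0-fold in DMSO, with a floor of 3 reads in the DMSO library, and a ratio of 0.111 in RTX (exact 95% counting interval 0.0215 to 0.359), while the other ORC1 guides had 869 and 391 reads in RTX, 867 and 320 in DMSO and 893 and 337 at day 0.

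Among the factors that fire licensed origins, DBF4 had 2, 62 and 112 reads in RTX, 22, 52 and 185 in DMSO, and 10, 227 and 161 at day 0. The guide with 227 reads at day 0 was scarce in both cultures, whereas the first guide had too few reads in any library to place it: its ratio of RTX to day 0 was 0.199, with an exact 95% counting interval of 0.0212 to 0.934. The DBF4 median was -1.11 in RTX and 0.04 in DMSO. Without the guide that had 10 reads at day 0, it was -1.16 in RTX and -1.07 in DMSO. With all guides the value in RTX was -1.86 with a pseudocount of 1 and -0.46 with 20. CDC7, the kinase, had 99, 119 and 46 reads in RTX, 159, 95 and 12 in DMSO, and 255, 172 and 11 at day 0. The CDC7 medians were -0.52 in RTX and -0.82 in DMSO, and the guide above the limit in RTX was the scarcest one at day 0. MCM10 stood at 0.19 and 0.02 with no guide outside the limits. The median of these 3 genes was -0.52 in RTX and 0.02 in DMSO, and the value in DMSO became -0.90 when guides under 50 normalized reads at day 0 were left out.

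All 9 polymerase genes had a median below 0 in DMSO (50.1% of all genes did), with -0.58 over the class. In RTX, 8 of 9 did (50.4% of all genes), also with -0.58 over the class. Of their 27 guides, 8 were below the limit in RTX (5.16% of all targeting guides were) and 9 in DMSO (8.05%). PRIM1, the catalytic primase subunit, had 255, 21 and 93 reads in RTX, 228, 26 and 181 in DMSO, and 714, 92 and 82 at day 0. A pair of its guides was far below day 0 in both cultures and the other was not, which gave medians of -1.48 in RTX and -1.78 in DMSO (adjusted exact p = 0.480 and 0.279). POLE2, the second subunit of polymerase epsilon, had 77, 14 and 17 reads in RTX, 25, 7 and 15 in DMSO, and 176, 43 and 14 at day 0. The POLE2 medians were -1.15 in RTX and -2.12 in DMSO (adjusted exact p = 0.660 and 0.188), and its remaining guide was scarce in every library.

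POLE, the catalytic subunit of polymerase epsilon, stood at -0.87 in RTX and -0.14 in DMSO. Its guides had 94, 61 and 524 reads in RTX, 147, 116 and 770 in DMSO, and 230, 115 and 491 at day 0. Each POLE guide was scarcer in RTX than in DMSO. POLD3, an accessory subunit of polymerase delta, had 197, 17 and 205 reads in RTX, 222, 12 and 356 in DMSO, and 332, 150 and 201 at day 0. One POLD3 guide was far below the limit in both cultures and the other two were inside it, so that the medians were -0.75 and -0.73. POLA1, the catalytic subunit of polymerase alpha, had 1 guide with 0 reads in RTX, 4 in DMSO and 27 at day 0, which is a loss of at least 9.05-fold in RTX with a floor of 3 reads in the RTX library. The medians of POLA1 were -0.47 in RTX and -0.60 in DMSO. POLD1, the catalytic subunit of polymerase delta, stood at -0.58 and -0.57, POLD2 at -0.36 and -0.58, POLA2 at 0.16 and -0.22, and PRIM2 at -0.29 and -0.32.

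The clamp and clamp loader class had a median of -0.44 in RTX and -0.64 in DMSO. Below the limit were 6 of its 18 guides in RTX (5.16% of all targeting guides were) and 7 in DMSO (8.05%). PCNA, the sliding clamp, had 150, 25 and 27 reads in RTX, 86, 113 and 51 in DMSO, and 238, 72 and 72 at day 0. All PCNA guides were below day 0 in RTX (median -1.27, adjusted exact p = 0.521), while in DMSO 1 guide was above day 0 and the median was -0.61. RFC5 had 193, 171 and 103 reads in RTX, 141, 75 and 161 in DMSO, and 518, 159 and 225 at day 0. Its medians were -1.10 in RTX and -1.19 in DMSO, and the guides in DMSO were all below day 0. RFC3 had 206, 145 and 129 reads in RTX, 168, 39 and 107 in DMSO, and 288, 81 and 287 at day 0. All RFC3 guides were below day 0 in DMSO, where the median was -1.11 (adjusted exact p = 0.202), and 1 was above it in RTX, where the median was -0.48. RFC2 had 111, 199 and 224 reads in RTX, 210, 371 and 205 in DMSO, and 116, 391 and 296 at day 0, with medians of -0.40 in RTX and -0.23 in DMSO. RFC4 stood at -0.05 and -0.55. RFC1, the large subunit, had 51, 104 and 35 reads in RTX, 47, 16 and 110 in DMSO, and 70, 96 and 41 at day 0. It had medians of -0.21 and -0.67 with guides as far apart in DMSO as -2.40 and 1.18, the higher of which had under 50 normalized reads at day 0; without it the median in DMSO was -1.54.

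RPA1, the large DNA-binding subunit of RPA, had 171, 169 and 117 reads in RTX, 62, 77 and 194 in DMSO, and 340, 324 and 161 at day 0. Its first 2 guides stood at about the same fraction of day 0 as each other within each culture, lower in DMSO than in RTX. The RPA1 medians were -0.93 in RTX and -2.16 in DMSO (adjusted exact p = 0.715 and 0.175). RPA3, the small subunit, had 45, 65 and 99 reads in RTX, 65, 55 and 80 in DMSO, and 119, 169 and 118 at day 0. Every RPA3 guide was below day 0 in both cultures, with medians of -1.32 in RTX and -0.98 in DMSO (adjusted exact p = 0.581 and 0.352). RPA2 had 256, 240 and 433 reads in RTX, 305, 301 and 224 in DMSO, and 209, 237 and 378 at day 0. Its medians were 0.19 and 0.18 with no guide outside the limits.

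None of the 6 guides against LIG1 and FEN1 and none of the 9 guides against RNase H2 left the non-targeting limits in either culture. With this few guides that is near the ordinary share, since 86.3% of all genes of 3 guides had none below the limit in RTX and 80.6% had none in DMSO. FEN1, the flap nuclease, had 97, 180 and 325 reads in RTX, 74, 236 and 647 in DMSO, and 57, 182 and 349 at day 0, with medians of -0.02 in RTX and 0.21 in DMSO. LIG1, the ligase of Okazaki fragments, had 114, 815 and 109 reads in RTX, 111, 465 and 147 in DMSO, and 164, 478 and 145 at day 0. The LIG1 medians were -0.40 in RTX and -0.20 in DMSO, and its most abundant guide was higher in RTX than in either other library. The catalytic RNase H2 subunit RNASEH2A had 312, 180 and 171 reads in RTX, 358, 298 and 137 in DMSO, and 454, 174 and 156 at day 0. RNASEH2B had 213, 334 and 597 reads in RTX, 321, 458 and 627 in DMSO, and 222, 306 and 814 at day 0. RNASEH2A stood at 0.04 in RTX and -0.34 in DMSO, RNASEH2B at -0.07 and 0.37, and RNASEH2C at -0.49 and -0.34. RNASEH2C had 148, 103 and 126 reads in RTX, 157, 128 and 343 in DMSO, and 189, 146 and 244 at day 0, and all of its guides were scarcer in RTX than at day 0. Differences between the classes were not tested.

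The classes can also be compared by the share of all library reads that their guides held, where the abundant guides weigh most. Intervals are exact 95% binomial intervals for counting error only. They leave out the drift of single guides and the spread between cultures, so whether they overlap tests no difference. All 123 guides together held 0.122% of reads in RTX (0.120 to 0.123), 0.119% in DMSO (0.117 to 0.120) and 0.163% at day 0 (0.161 to 0.165). The guides of CDC45 and GINS held 0.0138% in RTX (0.0133 to 0.0144), 0.00928% in DMSO (0.00885 to 0.00973) and 0.0204% at day 0 (0.0197 to 0.0211). The RPA guides followed the same order, with 0.00920% in RTX (0.00875 to 0.00966), 0.00725% in DMSO (0.00687 to 0.00764) and 0.0124% at day 0 (0.0119 to 0.0130). Polymerase guides held 0.0204% in RTX (0.0197 to 0.0210), 0.0214% in DMSO (0.0207 to 0.0221) and 0.0306% at day 0 (0.0298 to 0.0315), and the intervals of the cultures overlapped. Clamp and loader guides held 0.0147% in RTX (0.0141 to 0.0153), 0.0138% in DMSO (0.0133 to 0.0143) and 0.0224% at day 0 (0.0217 to 0.0232), again with overlapping intervals in the cultures. The MCM2-7 guides were lower in RTX, at 0.0220% (0.0213 to 0.0227), than in DMSO, at 0.0253% (0.0246 to 0.0260), and held 0.0281% at day 0 (0.0273 to 0.0289). RNase H2 guides held 0.0126% in RTX (0.0121 to 0.0131), 0.0150% in DMSO (0.0145 to 0.0156) and 0.0163% at day 0 (0.0157 to 0.0170). LIG1 and FEN1 guides held 0.00946% in RTX (0.00900 to 0.00992), 0.00893% in DMSO (0.00851 to 0.00937) and 0.00831% at day 0 (0.00788 to 0.00876).

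Setting the RTX culture against the DMSO culture of the same day shows which knockouts were more or less abundant under the drug. No replication gene passed robust rank aggregation in either direction (0.0794% of all genes were higher and 0% lower). At an unadjusted exact p under 0.05, 4 replication genes were higher (5.88% of all genes), namely GINS4, GINS3, RPA1 and RFC1. In the lower direction 2 were (5.19%), GINS2 and POLE. The lower call of GINS2 rested on 1 guide at -2.87, while its median was 0.34. RFC1 had 1 guide above the limit and 1 below it, with a median of 0.23. With edgeR's exact test as the ranking, 0 passed in either direction. The median of the 41 genes was 0.14, with 24 above 0 and 17 below (50.3% of all genes were below 0). GINS4 and RPA1 were at or above 2-fold (2.75% of all genes) and were also the only members with 2 guides above the limit (1.72% of all genes of 3 guides), and no gene was at or below 2-fold lower (0.844%). Of the 123 guides, 13 (10.6%) lay above the non-targeting limit and 5 (4.07%) below it, where 5.65% and 2.51% of all targeting guides did.

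All 5 genes of CDC45 and GINS had a positive median in RTX over DMSO (50.3% of all genes were below 0), but GINS2 turned to -0.70 with the mean over guides. Of their 15 guides, 4 were above the limit and 1 below it, where 5.65% and 2.51% of all targeting guides were. GINS4 was the highest of the 41 genes at 2.46, with guides at 2.70, 2.46 and -0.13 (adjusted exact p = 0.154), and the read counts above show that DMSO held few reads of the first 2. GINS3 and CDC45 both stood at 0.86, but with GINS3 guides between 0.68 and 0.92 and CDC45 guides between -0.72 and 1.23 (adjusted exact p = 0.516 and 0.903). GINS2 stood at 0.34 with 1 guide at -2.87, the lowest of all 123 guides. GINS1 stood at 0.18 with 1 guide at 1.73. The median of the 5 genes was 0.86, against 0.26 for origin licensing, 0.30 for the firing factors and -0.17 for MCM2-7.

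Of the MCM2-7 genes, MCM3 had all 3 guides lower in RTX, between -0.63 and -0.33, with a median of -0.50 (adjusted exact p = 0.987). MCM7 stood at -0.62, MCM5 at 0.23, and no MCM2-7 guide was outside the limits. The polymerases had a median of -0.01, which was 0.09 when scaled to the non-targeting guides. POLE2 was the highest of them at 0.76 with all guides positive (0.24 to 1.58; adjusted exact p = 0.950), and POLE the lowest at -0.48 with all guides negative (-0.74 to -0.41; unadjusted exact p = 0.0346, adjusted 0.918). These catalytic and second subunits of polymerase epsilon thus stood on opposite sides of 0, and the difference between them was not tested. The POLE2 median was that of a guide with only 14 reads in RTX and 7 in DMSO. With a filter of 50 normalized reads at day 0, POLE2 kept too few guides for a median.

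RPA1 stood at 1.22, with 2 guides above the limit and the other at -0.57 (adjusted exact p = 0.685), RPA3 at 0.35 and RPA2 at -0.11. In the clamp and loader class, RFC2 was lowest at -0.74 and RFC5 highest at 0.58, and PCNA stood at -0.68 with guides between -1.85 and 0.90. RFC1 had the widest spread of the 41 genes, with a range of 3.89 between its highest and lowest guide. That spread came from a guide with 104 reads in RTX, 16 in DMSO and 96 at day 0, and another with 35 in RTX, 110 in DMSO and 41 at day 0, so both stood near day 0 in RTX and apart in DMSO. RNASEH2A, RNASEH2B and RNASEH2C stood at -0.06, -0.31 and -0.17, LIG1 at 0.17 and FEN1 at -0.24, with all guides inside the limits.

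Several genes had a lower median in DMSO than in RTX against day 0, and others the reverse. POLE2, GINS4 and RPA1, at -1.15, 0.22 and -0.93 in RTX, were at -2.12, -2.43 and -2.16 in DMSO. PCNA, POLE and MCM7, at -1.27, -0.87 and -0.74 in RTX, were at -0.61, -0.14 and -0.18 in DMSO. None of these genes passed the test of RTX over DMSO itself.

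Other genes of the pathway were taken from a list of 33 symbols, of which 32 could be tested. Their median was -0.08 in RTX over day 0, -0.23 in DMSO over day 0 and 0.22 in RTX over DMSO. Of these 32, 1 was at or below 2-fold lower in RTX (1.39% of all genes) and 4 in DMSO (3.42%) against day 0, and 3 were at or above 2-fold higher in RTX than in DMSO (2.75%). TIMELESS, a fork protection factor, was the 1 in RTX, at -1.20, and stood at -1.33 in DMSO. In each of these comparisons 1 TIMELESS guide was above 0, at 0.20 in RTX and 0.64 in DMSO. ORC5 and ORC2, subunits of the origin recognition complex, were higher in RTX than in DMSO, at 1.77 and 1.13, each with 1 guide below 0; these 3 genes are named after their values were seen. DONSON, a factor of helicase assembly and fork stability, was the only one past the rank test, lower in DMSO over day 0 with a median of -2.22 and guides between -2.46 and -1.95 (adjusted exact p = 0.0320), and it stood at -0.47 in RTX over day 0. In RTX over DMSO it stood at 1.74 with guides between 1.46 and 2.26 (adjusted exact p = 0.0846). DONSON lies on chromosome 21, where the median over 200 genes was 0.72 in RTX over DMSO, against -0.01 for genes on other chromosomes, and the part of this in the DONSON value was not tested. No member of the 41 lies on chromosome 21. TOP2A, the topoisomerase that untangles sister DNA, had a median of 0.19 in RTX over day 0 and -1.25 in DMSO over day 0, and CHTF8, a subunit of an alternative clamp loader, stood at -0.49 and -1.06, in DMSO with all guides below 0 for both. The guides of TOP2A in RTX over day 0 lay between -2.06 and 0.30, so 1 of them was lower there than any TOP2A guide in DMSO.

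Guides can also cut copies of a gene elsewhere. RefSeq lists a pseudogene named after 10 of the 41 genes, among them PCNA, DBF4, RPA2, RPA3 and FEN1. In DMSO over day 0, 10 of the 30 guides against these 10 genes lay below the limit, and 25 of the 93 guides against the other 31 (8.05% of all targeting guides). In RTX over day 0 the counts were 10 and 15 (5.16% of all targeting guides). Whether a guide matches a pseudogene was not tested.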

How the data were processed

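Each of the 3 tables that the authors deposited sets 2 libraries against each other, guide by guide. The submitters' processing notes list MAGeCK 0.5.7 and the build hg19. The matching of reads to guides is not stated in these sources. The deposited values are a signal of guide abundance, reads divided by 1 size factor per library, per the file headers. Whole reads were recovered by dividing by the value of 1 read, and at least 99.998% of values came out whole within 0.1. The deposited tables also hold the authors' one-sided p-values per guide, used only as an alternative ranking.

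Computed here were log2 ratios with a pseudocount of 5 for the 62538 guides that had 10 or more normalized reads at day 0, all 123 member guides included. Left out were 23 date-like gene names with 72 guides. Genes with at least 2 guides were tested in each direction by robust rank aggregation (top 0.25 of ranks), with an exact p from the order statistics of uniform ranks, adjusted over 20150 genes at 0.05. The test was tested on simulated data. Counts past 2-fold and outside the non-targeting limits carry no test. edgeR 4.0.16 served as an alternative for ranking, with a dispersion estimated on the non-targeting guides from recovered reads, beside numpy 2.4.6, scipy 1.17.1 and pandas 2.3.3.

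The members and lists were chosen with earlier results of these data known. The reads of all guides are given for members past the rank test or at 2-fold in any comparison, for the lowest and highest member of a class in DMSO over day 0 and in RTX over DMSO, and for the widest guide ranges. Names and chromosomes of other genes come from RefSeq GRCh38.p14, without coordinates. Guide sequences were not analysed here. Alternatives were other pseudocounts, filters, scalings, rank tests and the mean over guides.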

Additional observations from a re-analysis of the deposited data

How the results depend on the processing

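The rank test call of CDC45 in DMSO over day 0 was not stable, although its median stayed at or below -2.03 in every setting that gave a median. Its adjusted exact p was 0.0906 with a pseudocount of 1, 0.0763 with 20, 0.0620 by the second-best guide and 0.225 with the authors' p-values as the ranking, so that 0 replication genes passed under each of these. It stayed between 0.0428 and 0.0473 under the other filters, scaling to equal totals, the top 0.1 of ranks, genes with at least 3 guides and edgeR's exact test. Over all genes, 40 were lower in DMSO over day 0, against 13 with a pseudocount of 1, 51 with 20 and 5 by the second-best guide. In RTX over day 0, where 0 genes were lower, 4 were with a pseudocount of 20 or equal totals, 2 with a filter of 50 reads or by the second-best guide, 3 with edgeR and 14 with the authors' p-values, and the 14 higher genes became 23 with a pseudocount of 20, 9 by the second-best guide and 28 with the authors' p-values. In RTX over DMSO the 16 higher genes became 25, 7 and 26 under those 3 settings. Among the 41 replication genes, those at least 2-fold lower in RTX over day 0 numbered 4 with a pseudocount of 20, against 7. In RTX over DMSO, 1 replication gene was at or above 2-fold with the mean over guides, against 2. The single member guide above the limit was left out by the filter of 50 reads in both comparisons with day 0. In DMSO it came inside the limit with a pseudocount of 20, which left 0 member guides.

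With the mean over guides in place of the median, PRIM1 in DMSO over day 0 stood at -0.88 and ORC1 at -1.06, and in RTX over day 0 GINS2 stood at -1.16, POLA1 at -1.12 and ORC1 at -0.62. POLE2 in DMSO over day 0 stood at -1.30 with a pseudocount of 20.

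Class medians near 0 changed sign. The firing factors in DMSO over day 0 (0.02) stood at -0.898 with a filter of 50 reads, -0.170 after non-targeting scaling, -0.00458 with equal totals and -0.468 with the mean over guides, and in RTX over DMSO at -0.0394 with that filter. LIG1 and FEN1 in DMSO over day 0 (0.01) stood at -0.183 after non-targeting scaling and -0.0179 with equal totals. Their median was 0.0699 in RTX over day 0 and 0.0406 in RTX over DMSO with the mean over guides, and 0.0644 in RTX over DMSO after non-targeting scaling, under which the polymerases stood at 0.0936. Scaling to the non-targeting guides moved the median of all genes by -0.19 in DMSO over day 0. The cause of these differences was not tested, other than that the filter of 50 reads leaves out 7 member guides. The median of all 41 genes kept its sign under every setting run, with a lowest value in RTX over DMSO of 0.0239 against 0.14. No paired analysis was possible because each condition has 1 library, and without replicates no call here can be checked against the spread between cultures.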
